A study of Homo sapiens with 18 samples.

Results

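The probe sets described here answered to the androgen dihydrotestosterone (DHT) in LNCaP cells but carried no gene symbol in the deposited annotation. They were chosen on measured values: a mean log2 signal of at least 7 over all 18 arrays, a DHT mean that differed from the vehicle mean by at least 0.8 on the log2 scale, and no overlap between the 3 DHT arrays and the 3 vehicle arrays. Of 54613 non-control probe sets, 10470 had no symbol, 3411 of these reached the signal limit, and 204 met all conditions, 62 higher and 142 lower with DHT. LNCaP is an established prostate cancer line, derived from a lymph node metastasis and responsive to androgen, here in medium with 5% hormone-depleted serum. The groups were 100 nM DHT, the same DHT with the antiandrogen enzalutamide at 1 or 10 µM, vehicle (the solvent DMSO), and enzalutamide alone at 1 or 10 µM, all for 16 h with 3 arrays each. As models, all groups are 1 cell line at 1 time point, and no label says whether the replicates were separate cultures, so each p-value reflects only how these samples spread, which may be technical.

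DHT binds the androgen receptor, which then enters the nucleus, binds DNA and raises or lowers the transcription of nearby genes. Enzalutamide competes with androgens for the same receptor and hinders its entry into the nucleus and its binding to DNA. A probe set is a group of short probes designed on a transcript sequence. The suffixes _s_at, _x_at and _a_at, on 14, 11 and 8 of the 204, mark probe sets whose probes can match more than 1 transcript. Probe sets without a symbol were designed on expressed sequence tags, on cDNA clones of unknown function and on predicted genes. Transcripts of this kind can be long non-coding RNAs, unspliced or extended forms of known genes, or genes that were named after the annotation was made.

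By their deposited titles, 73 of the 204 were cDNA or mRNA clones, 55 were transcribed loci, 30 were hypothetical genes or genes described as similar to another, and 46 had no title. Transcribed loci were 27.0% of the members, against 19.3% of all 3411 probe sets without symbol at this signal, and probe sets without a title were 22.5%, against 34.9%. The members lay in 136 UniGene clusters, which are groups of sequences taken to come from 1 gene, and 46 had none. A gene could be paired with 5 members: SMCO3 through a RefSeq accession, GRIK2 and H4C14 through the deposited title, and EML6 and MICOS10 through another probe set of the same cluster. The other 199 could not be paired with 1 gene of the RefSeq table of assembly GRCh38.p14, and no genome position is given for them. Some of the 199 have a provisional gene name in the deposited title, such as LOC401131 or LOC440156.

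Among the 5 genes, GRIK2 had 6 probe sets on the array, all lower with DHT. GRIK2 encodes a subunit of kainate-type glutamate receptors. Its promoter is shown for that reason, as 300 bases around the first RefSeq start of the gene on the plus strand of chromosome 6, at chr6:101393458-101393757 in GRCh38.p14, with 250 bases before the start and 50 from it on. Nothing is in capitals, since the motif searched for, AGAACA on either strand (the androgen receptor half-site), was not among these letters, nor was the full site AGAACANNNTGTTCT, which contains it.
GRIK2: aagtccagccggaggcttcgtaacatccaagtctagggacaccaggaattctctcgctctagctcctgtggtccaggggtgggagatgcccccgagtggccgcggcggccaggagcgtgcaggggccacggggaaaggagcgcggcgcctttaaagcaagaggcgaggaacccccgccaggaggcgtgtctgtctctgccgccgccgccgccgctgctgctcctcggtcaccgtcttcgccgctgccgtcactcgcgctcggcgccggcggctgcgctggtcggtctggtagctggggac
Over all 35116 promoters of this length in the RefSeq table, 14.8% held the half-site on either strand and 0.00285% held the full site. Array values do not show which start was used.

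Array medians ran between 6.87 and 7.18 on the log2 scale. The ACTB 3′/5′ signal ratio, a sign of RNA integrity, was 4.50 on DHT replicate 2 and 6.04 on replicate 2 of 1 µM enzalutamide, against 1.42 to 1.80 on the other arrays. All 10 prostate luminal markers passed the signal limit, among them KLK3, FOLH1 and HOXB13. Of the markers of other cell types, 2 of 3 basal (KRT5 at a mean of 7.86, TP63 at 7.22), 1 of 4 fibroblast (DCN, 8.25), 1 of 4 leukocyte (CD3E, 7.35) and 1 of 2 endothelial ones (PECAM1, 8.22) passed it as well, and limma called 0 of them beside either dose. Below the limit lay, among others, the leukocyte markers PTPRC (4.45) and CD14 (2.48), the endothelial CDH5 (3.57) and the basal KRT14 (3.28). All samples are 1 cell line, and the signal limit of 7 lies within the range of the array medians. Passing the limit therefore does not show that cells of another type were present. Of the androgen-induced genes tested, 16 of 18 were called higher with DHT beside 1 µM enzalutamide and 8 beside 10 µM, with median changes of 2.03 and 0.93. For the androgen-repressed genes, 7 of 9 and 5 of 9 were called lower, with medians of -1.12 and -0.68. PMEPA1, which dampens TGF-beta signalling, rose by 3.07 and 2.24 beside 1 and 10 µM, and AMIGO2, a cell adhesion protein, fell by 2.14 and 1.39 (limma, adjusted p of 1.36e-07 and 5.24e-06 for PMEPA1 and of 9.58e-06 and 0.00114 for AMIGO2). Of 12 prostate long non-coding RNAs listed, 3 were found by symbol and MALAT1 alone reached the signal limit, with changes of -0.01 and -0.63 that limma did not call.

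The members that were higher with DHT had a median difference from vehicle of 1.01, between 0.80 and 3.55. For those lower with DHT the median was -1.09, between -3.87 and -0.80. These differences chose the members and carry no test. Over all 27155 probe sets at the signal limit, 5.2% met the same conditions, 2.11% higher and 3.09% lower. Of all probe sets without symbol at the limit the members were 5.98%, with 1.82% higher and 4.16% lower. Among probe sets with a symbol 1209 of 23744 (5.09%) met them, 512 higher (2.16%) and 697 lower (2.94%). Members were thus higher in 30.4% of cases, and the probe sets with a symbol in 42.3%. With every array's median set to the same level the shares were 43.3% of 180 members and 56.8% of 1187 with a symbol, so the split between the directions moves with the scaling. Just inside the limit lay 1559957_a_at, 242358_at and 1566145_s_at at -0.80, and just outside it 242573_at, 226725_at and 228900_at, also -0.80 after rounding. Another 46 probe sets differed enough but had overlapping groups, and 477 met the other conditions with a mean signal under 7. In 13 of the 62 higher members the vehicle mean lay under 7, and in 44 of the 142 lower members the DHT mean did, so the sizes of those differences are uncertain.

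The member of largest positive difference was 1561817_at, on a cDNA clone with a prostate library name (FLJ35294, PROST2008724). Its log2 signals were 12.60, 12.28 and 12.73 with DHT, 11.96, 11.71 and 11.69 with DHT and 1 µM enzalutamide, and 11.27, 11.28 and 11.09 with DHT and 10 µM. Without DHT they were 8.93, 9.13 and 8.88 with vehicle, 10.24, 9.55 and 9.99 with 1 µM, and 8.97, 9.91 and 9.53 with 10 µM. At each dose all 3 arrays with DHT lay above all 3 without it, and the arrays with 1 µM alone lay above the vehicle arrays. The DHT minus vehicle difference was 3.55, or 11.7-fold. Beside enzalutamide the DHT effect, that is DHT with the drug minus the drug alone, was 1.86 ± 0.21 at 1 µM (SE, adjusted p = 0.000157) and 1.74 ± 0.21 at 10 µM (adjusted p = 0.00103), in limma fitted to the 12 arrays that did not choose the members.

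228559_at, a partly coding cDNA clone, had 12.92, 12.85 and 12.68 with DHT, 11.45, 11.08 and 10.99 with DHT and 1 µM, and 10.27, 10.17 and 10.62 with DHT and 10 µM. The vehicle arrays had 9.63, 9.13 and 9.62, those with 1 µM alone 9.44, 9.76 and 9.11, and those with 10 µM alone 9.41, 8.87 and 9.34. The 3 groups with DHT stepped down without overlap as the dose went up, while the 3 groups without DHT overlapped. Its DHT effect was 1.73 ± 0.20 beside 1 µM (adjusted p = 0.000151) and 1.15 ± 0.20 beside 10 µM (adjusted p = 0.0119). The second of these was no longer called by limma without enzalutamide 10 µM replicate 2 (0.98, adjusted p = 0.0608) or without DHT and 10 µM replicate 3 (1.01, adjusted p = 0.0743).

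225710_at, on the cDNA clone FLJ34013, separated the groups as clearly. With DHT it had 10.62, 10.64 and 10.61, with DHT and 1 µM 9.78, 9.70 and 9.59, and with DHT and 10 µM 9.16, 8.81 and 8.98. Its values were 8.18, 8.06 and 7.79 with vehicle, 7.84, 7.59 and 7.61 with 1 µM, and 7.75, 7.64 and 7.66 with 10 µM. All arrays with DHT lay above all arrays without it. The DHT effect was 2.01 ± 0.14 beside 1 µM (adjusted p = 3.18e-06) and 1.30 ± 0.14 beside 10 µM (adjusted p = 0.00035).

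Both 227762_at and 228854_at are transcribed loci of the UniGene cluster Hs.536218. 228854_at had 13.14, 12.59 and 12.69 with DHT, 12.11, 12.02 and 11.98 with DHT and 1 µM, and 11.55, 11.34 and 11.54 with DHT and 10 µM, against 10.84, 10.81 and 10.75 with vehicle, 9.90, 10.24 and 10.09 with 1 µM and 10.38, 10.22 and 10.67 with 10 µM. 227762_at averaged 12.04 ± 0.51 with DHT, 11.35 ± 0.28 and 10.77 ± 0.06 with DHT and 1 or 10 µM, 9.91 ± 0.06 with vehicle and 9.75 ± 0.12 and 9.84 ± 0.24 with either dose alone (SD, n = 3 each). In both, the 3 groups with DHT stepped down as the dose went up, and every array with DHT exceeded every array without it. The DHT effect beside 1 µM was 1.96 ± 0.12 for 228854_at (adjusted p = 1.85e-06) and 1.60 ± 0.15 for 227762_at (adjusted p = 2.52e-05). Beside 10 µM it was 1.05 ± 0.12 (adjusted p = 0.000735) and 0.93 ± 0.15 (adjusted p = 0.00658). The remaining probe set of the cluster, 228858_at, had a mean signal of 6.48, below the limit, and differed by 1.31 between DHT and vehicle.

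Among the other leading members that were higher with DHT, 243928_s_at, which has no title, rose beside 1 µM by 1.70 ± 0.39 (adjusted p = 0.0132) and stood at 1.52 ± 0.39 beside 10 µM (adjusted p = 0.0842, not called). Its call beside 1 µM was lost without DHT and 1 µM replicate 1 (1.52, adjusted p = 0.0597). 229975_at had 9.41, 9.34 and 9.10 with DHT, 8.13, 7.54 and 7.86 with DHT and 1 µM and 7.09, 7.18 and 7.15 with DHT and 10 µM, against 6.37, 6.79 and 6.91 with vehicle, 6.84, 7.25 and 7.41 with 1 µM and a mean of 6.58 ± 0.49 with 10 µM (SD, n = 3). Its groups with and without DHT did not overlap at either dose, but its DHT effects of 0.68 ± 0.26 and 0.56 ± 0.26 were not called (adjusted p of 0.106 and 0.389).

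A different pattern was seen in 235419_at and 242827_x_at, both transcribed loci. 235419_at had 9.88, 9.04 and 9.37 with DHT, 7.72, 7.62 and 6.88 with DHT and 1 µM, and 7.52, 7.85 and 7.41 with DHT and 10 µM, against 7.14, 7.34 and 7.79 with vehicle. With enzalutamide alone it averaged 7.50 ± 0.59 at 1 µM and 7.57 ± 0.07 at 10 µM (SD, n = 3). The DHT arrays thus stood apart from all the others, which overlapped, and the DHT effects beside the drug were -0.10 ± 0.29 and 0.03 ± 0.29 (adjusted p of 0.85 and 0.986). For 242827_x_at the DHT minus vehicle difference was 1.91 and the DHT effects beside 1 and 10 µM were 0.30 ± 0.22 and 0.11 ± 0.22, neither called. 238975_at, with a vehicle mean of 5.94, showed 1.79 ± 0.57 and 0.59 ± 0.57, and its wide spread left both uncalled (adjusted p of 0.0575 and 0.74).

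**Figure D1:**
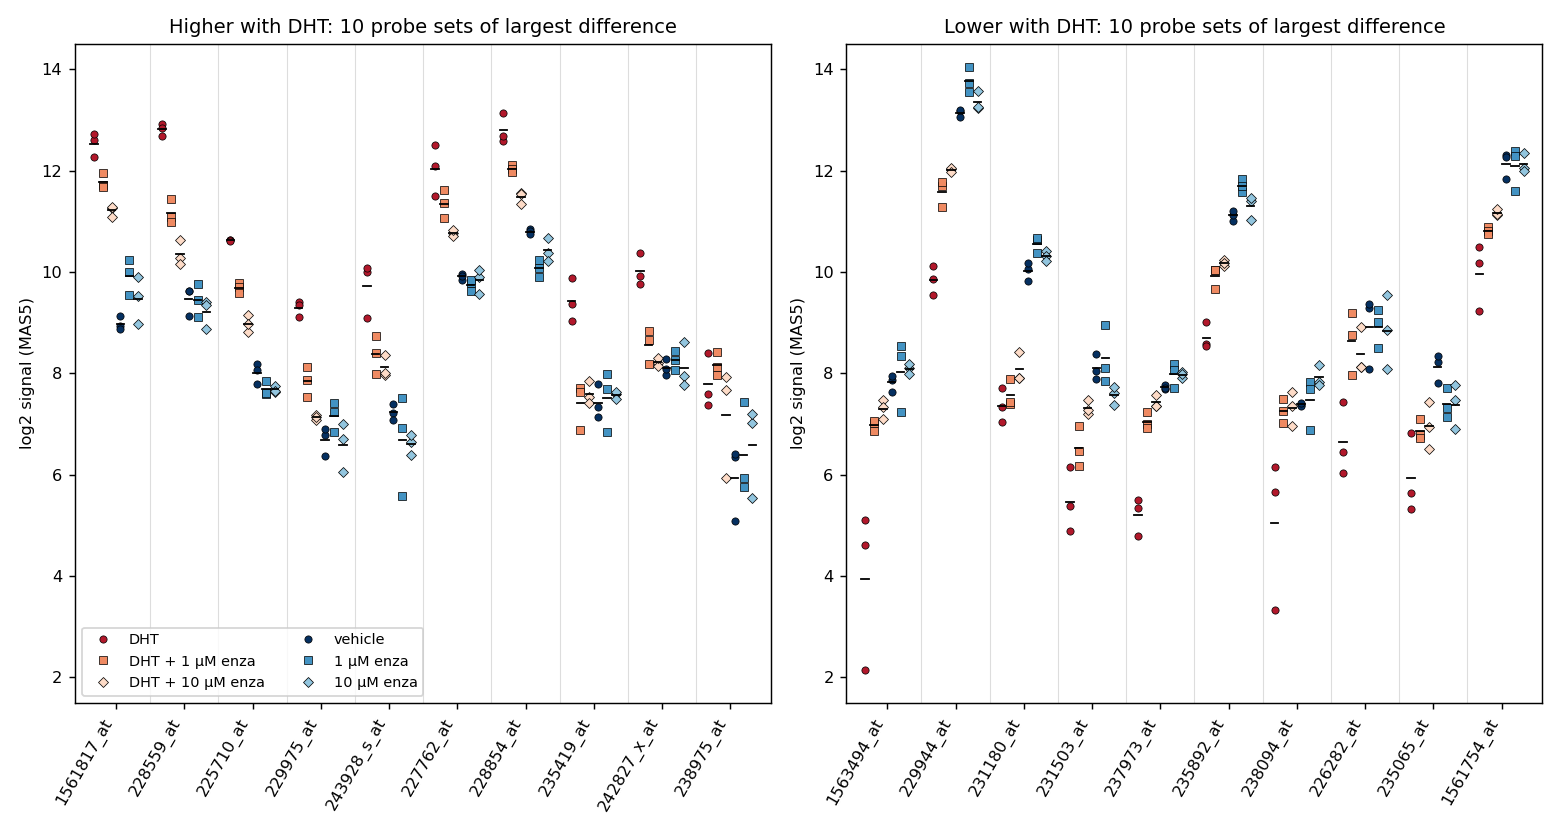
The log2 signal of the 10 members with the largest positive (left) and the 10 with the largest negative (right) DHT minus vehicle difference, with 1 point per array and a bar at each group mean of 3 arrays. In 225710_at and 228854_at the groups with DHT step down with the dose and stay above the groups without DHT, whereas in 235419_at only the DHT arrays stand apart, and 231180_at stays low with DHT at both doses.

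Of the members lower with DHT, 229944_at, on the cDNA clone FLJ13136, was bright in cells without androgen. Its values were 9.55, 10.11 and 9.87 with DHT, 11.28, 11.69 and 11.77 with DHT and 1 µM, and 12.02, 12.05 and 11.98 with DHT and 10 µM. Without DHT it had 13.17, 13.05 and 13.20 with vehicle, 13.72, 14.04 and 13.56 with 1 µM, and 13.24, 13.56 and 13.25 with 10 µM. The groups with DHT stepped up with the dose without overlap and stayed below every array without DHT. The DHT minus vehicle difference was -3.3, and the DHT effect was -2.19 ± 0.15 beside 1 µM (adjusted p = 2.91e-06) and -1.33 ± 0.15 beside 10 µM (adjusted p = 0.000431).

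231180_at, which has neither title nor cluster, showed the largest effect of any member beside either dose. It had 7.33, 7.05 and 7.70 with DHT, 7.41, 7.89 and 7.43 with DHT and 1 µM, and 7.90, 7.90 and 8.42 with DHT and 10 µM. The values without DHT were 10.07, 10.18 and 9.83 with vehicle, 10.63, 10.68 and 10.38 with 1 µM, and 10.42, 10.32 and 10.21 with 10 µM. The DHT and the DHT with 1 µM arrays overlapped, and all arrays with 1 µM alone exceeded all vehicle arrays. Its DHT effect was -2.99 ± 0.17 beside 1 µM (adjusted p = 7.6e-07) and -2.24 ± 0.17 beside 10 µM (adjusted p = 2.9e-05), against a DHT minus vehicle difference of -2.66.

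235892_at, titled as similar to a gamma-tubulin complex component, had its groups in the same order. It had 8.58, 9.01 and 8.54 with DHT, 9.67, 10.04 and 10.04 with DHT and 1 µM and 10.11, 10.23 and 10.17 with DHT and 10 µM, against 11.02, 11.12 and 11.21 with vehicle. With the drug alone it averaged 11.70 ± 0.13 at 1 µM and 11.30 ± 0.23 at 10 µM (SD, n = 3). The DHT effect was -1.78 ± 0.13 (adjusted p = 5.4e-06) and -1.13 ± 0.13 (adjusted p = 0.000735) beside 1 and 10 µM. 1561754_at, a hypothetical gene, fell by 1.28 ± 0.17 beside 1 µM (adjusted p = 0.00045) and by 0.97 ± 0.17 beside 10 µM (adjusted p = 0.0136). Its call beside 10 µM was lost without enzalutamide 10 µM replicate 2 or any single array with DHT and 10 µM, and in the fit to all 18 arrays, with adjusted p between 0.0505 and 0.0757.

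Of the leading members lower with DHT, 231503_at, 237973_at and 1563494_at were called beside 1 µM and not beside 10 µM. 231503_at, on an mRNA clone, had 4.88, 5.38 and 6.15 with DHT, 6.46, 6.96 and 6.17 with DHT and 1 µM and 7.20, 7.27 and 7.48 with DHT and 10 µM, against 8.39, 7.88 and 8.05 with vehicle, 8.10, 8.95 and 7.85 with 1 µM and 7.61, 7.72 and 7.38 with 10 µM. At 1 µM the groups with and without DHT did not overlap, and at 10 µM they did. The DHT effect was -1.77 ± 0.28 beside 1 µM (adjusted p = 0.00162) and -0.25 ± 0.28 beside 10 µM (adjusted p = 0.783), and the difference between these effects was 1.52 ± 0.40 (adjusted p = 0.527, not called). 237973_at, a transcribed locus, fell by 0.93 ± 0.18 beside 1 µM (adjusted p = 0.00516) and stood at -0.55 ± 0.18 beside 10 µM (adjusted p = 0.189).

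The lowest single values belonged to 1563494_at, on an mRNA clone, with 4.60, 2.14 and 5.11 with DHT, 7.02, 7.06 and 6.86 with DHT and 1 µM and 7.48, 7.34 and 7.10 with DHT and 10 µM, against 7.63, 7.87 and 7.95 with vehicle, 8.53, 7.23 and 8.33 with 1 µM and 8.10, 8.18 and 7.99 with 10 µM. Its lowest value and that of 238094_at (5.66, 3.34 and 6.15 with DHT, against 7.38, 7.36 and 7.42 with vehicle) came from DHT replicate 2, the array of ACTB ratio 4.50, whose part in these differences was not tested. The DHT effect of 1563494_at was -1.06 ± 0.28 beside 1 µM (adjusted p = 0.0263), a call lost in 5 of the 12 fits that left out 1 array and in the fit to all 18 arrays. Beside 10 µM it was -0.79 ± 0.28 (adjusted p = 0.235, not called). For 238094_at it was -0.22 ± 0.27 and -0.60 ± 0.27, for 226282_at -0.29 ± 0.38 and -0.44 ± 0.38, and for 235065_at -0.52 ± 0.29 and -0.42 ± 0.29, none of them called.

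DHT beside 1 µM enzalutamide asks how far the members answered to DHT when the antagonist was present. With limma 109 of the 204 members (53.4%) were called at an adjusted p under 0.05, against 13.1% of all 27155 probe sets tested, and all 109 in the direction that DHT had without the drug. Of the 62 higher members 24 rose (38.7%), against 7.17% of all probe sets called higher, and of the 142 lower members 85 fell (59.9%), against 5.94% called lower. The median DHT effect was 0.39 over the higher members and -0.73 over the lower ones, beside -0.02 over all probe sets. By range, the 3 arrays with DHT lay wholly above those with the drug alone in 32 of 62 and wholly below in 92 of 142, where 15.8% and 16.3% of all probe sets did so. The higher members went the other way in sign in 18 cases and the lower ones in 10, none of them called.

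Probe sets without a symbol had lower values as a class in this contrast. Over the 3207 that were not members the median was -0.17, with 85 called higher and 226 lower (9.70% in all), whereas over probe sets with a symbol it was 0.00, with 1837 higher and 1303 lower. The 3 arrays with DHT and 1 µM had medians over the whole array of 6.95, 7.01 and 6.87, and the 3 arrays with 1 µM alone had 7.09, 7.09 and 7.16. Among probe sets of mean signal 9 to 10 the medians were still -0.12 without and 0.09 with a symbol. Centring each array on its median added 0.17 to every value of this contrast. After that step 31 of the higher members rose and 65 of the lower ones fell, with medians of 0.55 and -0.56, and over all probe sets 85.8% of 4274 calls were higher, against 54.7% of 3560 as deposited. The part of array brightness in the members' values was not tested further. Without replicate 2 of 1 µM enzalutamide, the array of ACTB ratio 6.04, 24 rose and 92 fell.

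Beside 10 µM enzalutamide, 30 members were called (14.7%), 11 of the higher and 19 of the lower ones, against 1.36% of all probe sets, 0.663% higher and 0.692% lower. The direction was again that of DHT without the drug in all 30. The median effect was 0.32 over the higher members and -0.35 over the lower ones, beside 0.02 over all probe sets and 0.02 over the probe sets without symbol that were not members. Of the higher members 55 of 62 had a positive effect and of the lower ones 121 of 142 a negative one. The 3 arrays with DHT lay wholly above those with the drug alone in 27 of 62 and wholly below in 71 of 142, against 13.1% and 10.6% of all probe sets. The count of 30 depended on single arrays: it was 17 without replicate 2 of 10 µM enzalutamide, 16 without replicate 2 or replicate 3 of DHT with 10 µM, 48 without replicate 2 of 1 µM enzalutamide, and 19 after centring.

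All 30 were also called beside 1 µM, 79 members were called beside 1 µM alone (13 higher, 66 lower), and 95 beside neither dose (38 higher, 57 lower). Of members with a mean signal of 8 or more, 77 of 129 were called beside 1 µM and 27 beside 10 µM. Below that signal the counts were 32 and 3 of 75. A separate fit to the 19318 probe sets of mean 8 or more called 3366 of them beside 1 µM and 384 beside 10 µM. Among the members it called 78 and 28 of 129. No share over all probe sets was counted for the lower signal or for the titles. By title the counts beside 1 and 10 µM were 39 and 7 of 73 cDNA or mRNA clones, 32 and 10 of 55 transcribed loci, 22 and 9 of 46 without title and 16 and 4 of 30 hypothetical or similar genes.

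**Figure D2:**
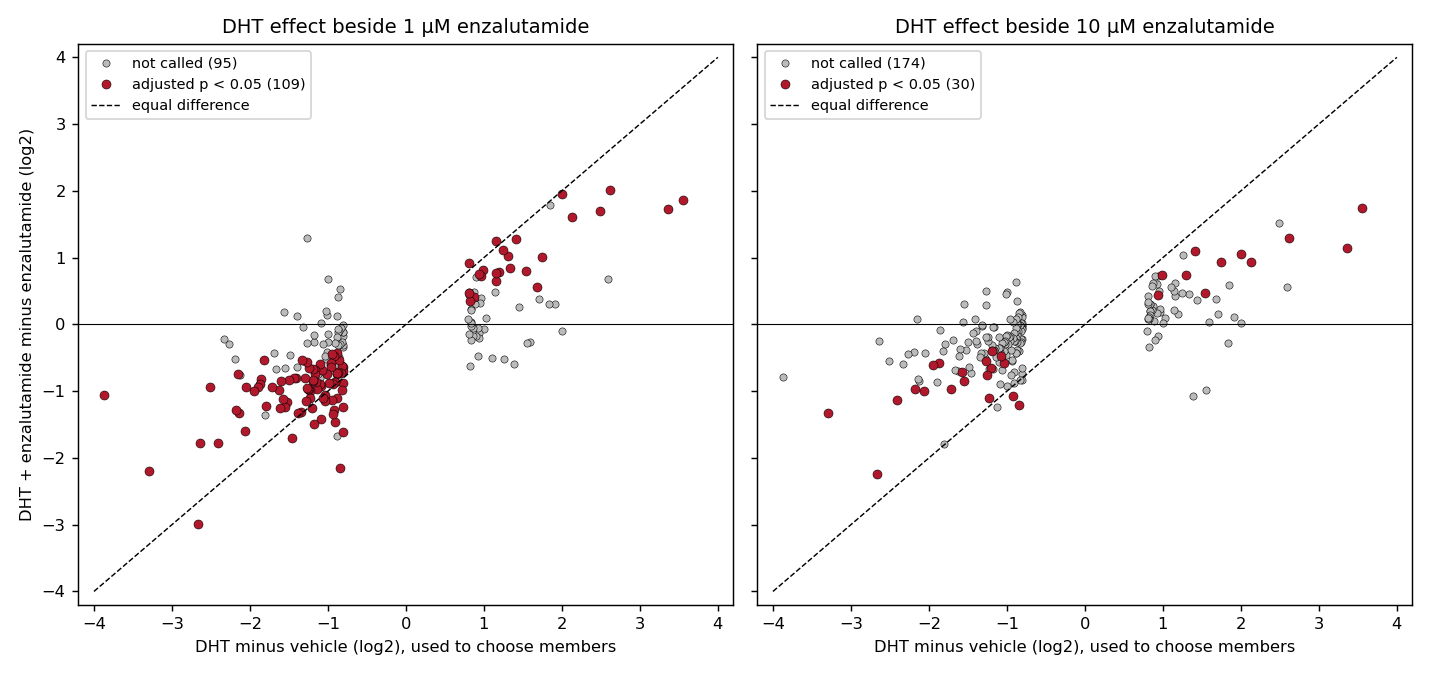
Each point is 1 of the 204 members, with its DHT minus vehicle difference, which chose it, on the horizontal axis and its DHT effect beside 1 µM (left) or 10 µM enzalutamide (right) on the vertical axis, both log2. Points called by limma are red, 109 on the left and 30 on the right, the dashed line marks an equal difference, and the median effects are 0.39 and -0.73 on the left and 0.32 and -0.35 on the right.

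Several members outside the leading 20, chosen here after their values were seen, were called beside both doses with small spread. 223211_at, which has no title, had 10.05, 10.19 and 10.18 with DHT, 10.63, 10.53 and 10.49 with DHT and 1 µM and 10.64, 10.65 and 10.64 with DHT and 10 µM, against 11.04, 11.08 and 11.08 with vehicle, 11.93, 11.73 and 11.85 with 1 µM and 11.80, 11.73 and 11.62 with 10 µM. Every array with the drug alone exceeded every vehicle array, and every array with DHT lay below every vehicle array. The DHT effect was -1.28 ± 0.08 beside 1 µM (adjusted p = 2.91e-06) and -1.07 ± 0.08 beside 10 µM (adjusted p = 3.11e-05), both larger than the DHT minus vehicle difference of -0.93. 227425_at, on a testis cDNA clone (FLJ40165), averaged 11.17 ± 0.17 with DHT, 11.03 ± 0.12 with DHT and 1 µM and 10.80 ± 0.23 with DHT and 10 µM, against 9.76 ± 0.25 with vehicle, 9.76 ± 0.09 with 1 µM and 9.70 ± 0.03 with 10 µM (SD, n = 3). Its DHT effects of 1.28 ± 0.12 and 1.11 ± 0.12 (adjusted p of 2.75e-05 and 0.000362) lay near its DHT minus vehicle difference of 1.41. 220375_s_at, with no title, had 8.93, 9.18 and 8.85 with DHT, 9.87, 9.90 and 9.84 with DHT and 1 µM and 10.22, 10.22 and 10.23 with DHT and 10 µM, against 10.82, 10.88 and 10.85 with vehicle. It stepped up without overlap as the dose beside DHT went up, and its DHT effects were -0.89 ± 0.08 and -0.58 ± 0.08 (adjusted p of 2.75e-05 and 0.00305).

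The step between the doses beside DHT shows whether 10 µM moved the members further than 1 µM did. By direction it did so in most of them: DHT with 10 µM minus DHT with 1 µM was negative in 50 of the 62 higher members, with a median of -0.23, and positive in 135 of the 142 lower members, with a median of 0.28. After each array's median was set to the same level the medians were -0.36 and 0.15, so their sizes depend on the scaling. Over all probe sets the median was 0.05 as deposited, with 59.8% positive, and -0.08 after that step, and over all probe sets without symbol 0.11 with 71.9% positive. In 25 of the higher members all 3 arrays with 10 µM lay below those with 1 µM, where 7.41% of all probe sets did so, and in 69 of the lower members all 3 lay above, where 11.1% did. No single member was called (limma, lowest adjusted p = 0.311), and neither was any of the 27155 probe sets (0%). At an unadjusted p under 0.05 there were 60 members and 1809 probe sets in all, and 43 members after centring and 35 without replicate 3 of DHT with 10 µM. For the fits after centring and without that replicate, no such count over all probe sets was made. Among the leading members, 225710_at had a step of -0.71 ± 0.14 (adjusted p = 0.311), 228559_at -0.82 ± 0.20 (adjusted p = 0.372) and 228854_at -0.56 ± 0.12 (adjusted p = 0.347).

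Without DHT, 10 µM minus 1 µM of the drug had a median of -0.06 over the higher members and -0.09 over the lower ones. Limma called none of the 204 and 3 of all probe sets (0.011%). At an unadjusted p under 0.05 there were 30 of the 204 members and 3053 of all 27155 probe sets. Without replicate 3 of 1 µM enzalutamide limma called 3 of the 204 members lower, 1558819_at (-0.67), 1559410_at (-0.88) and 243332_at (-0.64). Of all 27155 probe sets that fit called 619, with 497 higher and 122 lower, and whether the members differ from this share was not tested. The difference between the DHT effects at the 2 doses was called for no member and for no probe set (0%), with 54 members and 2342 probe sets at an unadjusted p under 0.05. So the larger number of members called beside 1 µM than beside 10 µM has no gene-by-gene test behind it that passed. The member with the lowest adjusted p for it was 228854_at, at -0.91 ± 0.17 (adjusted p = 0.41).

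In levels, the median over the 62 higher members of the group means was 9.92 with DHT, 9.46 with DHT and 1 µM and 9.19 with DHT and 10 µM, against 8.68 with vehicle, 8.80 with 1 µM and 8.82 with 10 µM. Over the 142 lower members it was 7.65, 7.90 and 8.29 with DHT at 0, 1 and 10 µM, against 8.85, 8.75 and 8.76 without DHT. With 1 µM beside DHT, 54 of the 62 and 127 of the 142 had a mean between those of DHT and vehicle, and with 10 µM 51 and 133 did. Set on a scale with vehicle at 0% and DHT at 100%, the median member stood at 51.8% with 1 µM and 35.5% with 10 µM among the higher ones, and at 62.0% and 38.7% among the lower ones. These shares hold the vehicle and DHT arrays that chose the members, so they are a description, and members chosen for a large difference tend to have it overstated.

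Against vehicle, the drug alone left the median member close to 0, at 0.14 and 0.07 for 1 and 10 µM over the higher members and -0.07 and -0.10 over the lower ones. Single members went further. 232426_at, higher with DHT by 0.93, was also higher with the drug alone, by 1.38 at 1 µM and 1.31 at 10 µM, from a vehicle mean of 6.17 that lay below the signal limit. 214757_at, on a cDNA clone, stood at -1.76 with 1 µM, where replicate 2, the array of ACTB ratio 6.04, had 3.79 against 6.99 and 7.27 on the other replicates, and its part was not tested. These 2 members were chosen for their values, and neither contrast has a test.

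**Figure D3:**
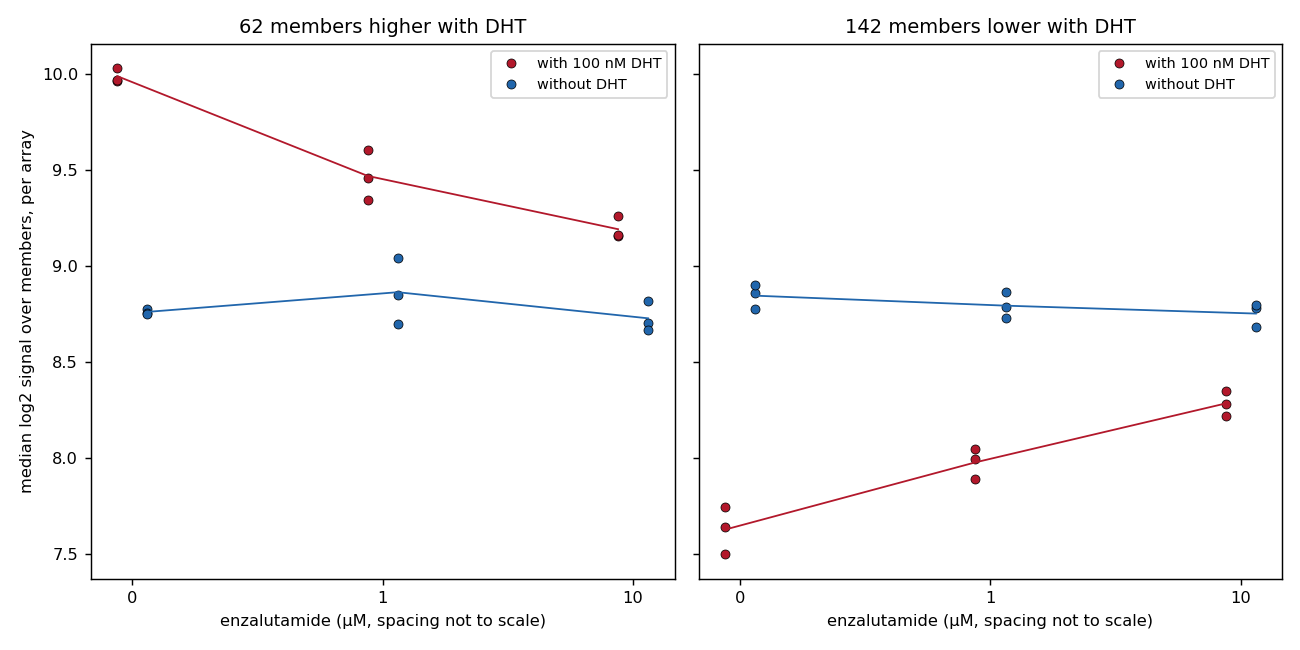
The median log2 signal over the 62 members higher with DHT (left) and the 142 lower with DHT (right) on each array, against the dose of enzalutamide, with lines through the means of 3 arrays. With DHT (red) the medians move from both sides toward those without DHT (blue) as the dose goes up and do not reach them at 10 µM, and the dose axis is not to scale.

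The 5 members paired with a gene behaved differently from one another. 237484_at, paired with SMCO3, a predicted membrane protein with coiled-coil domains, had 7.02, 6.86 and 6.98 with DHT, 7.16, 7.20 and 6.66 with DHT and 1 µM and 7.32, 7.67 and 7.48 with DHT and 10 µM, against 7.51, 7.94 and 7.95 with vehicle, 9.63, 9.06 and 8.79 with 1 µM and 8.79, 9.01 and 8.31 with 10 µM. It was higher with the drug alone than with vehicle on every array, by 1.35 and 0.90 in the means, and low in all 3 groups with DHT. The DHT effect was -2.15 ± 0.25 beside 1 µM (adjusted p = 0.000161) and -1.21 ± 0.25 beside 10 µM (adjusted p = 0.0301), against -0.85 for DHT minus vehicle. The call beside 10 µM was lost without either replicate 1 or 2 of 10 µM enzalutamide, without any 1 array with DHT and 10 µM, and with no filter on signal, with adjusted p between 0.0582 and 0.14.

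213845_at, which its title places in the 3′ untranslated region of GRIK2, the gene whose promoter is printed above, had 7.78, 7.37 and 7.95 with DHT, 7.74, 7.47 and 7.95 with DHT and 1 µM and 8.09, 8.36 and 8.17 with DHT and 10 µM, against 8.79, 9.04 and 8.96 with vehicle, 8.93, 8.93 and 8.61 with 1 µM and a mean of 8.88 ± 0.11 with 10 µM (SD, n = 3). Every array with DHT lay below every array without it. The DHT effect was -1.10 ± 0.16 beside 1 µM (adjusted p = 0.000852) and -0.67 ± 0.16 beside 10 µM (adjusted p = 0.0629, not called). The 5 other probe sets of GRIK2, which carry the symbol, had DHT minus vehicle differences between -1.30 and -0.52, and 3 of them had a mean signal under 7. The 2 that were tested, 1560265_at and 1563754_at, had -0.51 ± 0.30 and -0.71 ± 0.24 beside 1 µM and -0.68 ± 0.30 and -0.44 ± 0.24 beside 10 µM, none called (adjusted p between 0.0732 and 0.478).

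231027_at was paired with H4C14, a gene for histone H4, which is among the core proteins around which DNA is wound. Several near-identical genes encode that histone, so its signal can come from more than one of them. It averaged 6.37 ± 0.79 with DHT and 7.41 ± 0.24 with vehicle (SD, n = 3 each), and its DHT effects of -0.47 ± 0.28 and -0.26 ± 0.28 were not called. The other probe set of that gene, 207046_at, showed -0.84 for DHT minus vehicle and -0.18 and -0.27 beside the drug. 229656_s_at, paired with EML6 of the family of microtubule-associated EMAP-like proteins, had DHT effects of -0.44 ± 0.23 and -0.20 ± 0.23, neither called, and the other EML6 probe set, 242785_at, had a mean signal of 3.17.

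228096_at was paired with MICOS10, a subunit of the complex that shapes the folds of the inner mitochondrial membrane. It had 7.88, 8.55 and 8.26 with DHT, 7.53, 7.48 and 7.61 with DHT and 1 µM and 7.21, 6.76 and 5.65 with DHT and 10 µM, against 6.78, 6.43 and 6.84 with vehicle, 8.19, 7.95 and 7.30 with 1 µM and 7.17, 7.81 and 7.58 with 10 µM. Its DHT effects of -0.28 ± 0.35 and -0.98 ± 0.35 were opposite in sign to the DHT minus vehicle difference of 1.55 and were not called (adjusted p of 0.63 and 0.246). The other probe set of MICOS10, 224867_at, at a mean signal of 11.91, showed 0.48 for DHT minus vehicle, which has no test. The DHT effects of 224867_at were 0.18 ± 0.08 and 0.12 ± 0.08 beside 1 and 10 µM, and limma called neither. The pairing of 228096_at with MICOS10, like that of 229656_s_at with EML6, rests on an old UniGene cluster and may not hold in a current annotation.

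Members of 1 UniGene cluster were designed on sequences of 1 presumed gene, so they are not independent. In 16 clusters there were 2 or more members, 38 in all, and within each of the 16 the members shared the direction that DHT had without the drug. Beside the drug the members of a cluster did not always keep together. The rule required a difference of at least 0.8 without overlap from each member without the drug, and nothing beside it. Agreement within clusters therefore cannot be compared between these settings. The clusters named here were chosen after their values were seen. In Hs.88156, a transcribed locus, 230003_at fell by 1.25 ± 0.12 and 0.65 ± 0.12 beside 1 and 10 µM (adjusted p of 3.62e-05 and 0.0181), and 241925_x_at by 0.97 ± 0.13 and 0.76 ± 0.13 (adjusted p of 0.000396 and 0.00943). In Hs.547698, 235937_at fell by 1.06 ± 0.09 and 0.58 ± 0.09 (adjusted p of 2.1e-05 and 0.00849), whereas 227492_at fell by 0.71 beside 1 µM (adjusted p = 0.000422) and stood at -0.39 beside 10 µM (adjusted p = 0.0673).

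The cluster Hs.458285, hypothetical gene LOC401131, had 8 probe sets on the array. Its 3 members, 230959_at, 215441_at and 1566145_s_at, differed by -1.94, -1.52 and -0.80 between DHT and vehicle, and its 5 other probe sets by between -1.22 and -0.17. 230959_at had 10.14, 9.98 and 10.04 with DHT, 10.88, 10.86 and 10.96 with DHT and 1 µM and 11.30, 11.23 and 11.07 with DHT and 10 µM, against 12.05, 11.95 and 11.99 with vehicle, a mean of 11.89 ± 0.14 with 1 µM and of 11.82 ± 0.10 with 10 µM (SD, n = 3). Its groups with DHT stepped up with the dose without overlap and stayed below all arrays without DHT. It fell by 0.99 ± 0.10 and 0.61 ± 0.10 beside 1 and 10 µM (adjusted p of 4.46e-05 and 0.00671). 215441_at and 1566145_s_at fell beside 1 µM by 1.16 and 0.88 (adjusted p of 0.000105 and 0.0364) and stood at -0.38 and -0.74 beside 10 µM (adjusted p of 0.201 and 0.207). Of the 5 others, 237737_at, which carries a symbol, had -0.93 and -0.71 beside 1 and 10 µM, called by limma at both (adjusted p of 0.000174 and 0.00505). 222347_at was called beside 1 µM only (-0.34, adjusted p = 0.0422). 1566144_at and 1566146_x_at were called at neither dose, and 215625_at, under the signal limit, was not tested.

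Among clusters higher with DHT, Hs.529095 (LOC440156) held 242546_at, 231882_at and 231374_at, with effects of 0.76, 0.78 and 0.49 beside 1 µM and 0.43, 0.16 and 0.63 beside 10 µM. The first was called at both doses (adjusted p of 0.000275 and 0.0402), the second beside 1 µM (adjusted p = 0.000823) and the third at neither. In Hs.61426, titled as mesenchymal stem cell protein DSC96, 227167_s_at and 230466_s_at had 0.39 and -0.26 beside 1 µM and 0.19 and 0.04 beside 10 µM, none called, after DHT minus vehicle differences of 0.96 and 1.59. The widest spread was in Hs.442983, an mRNA clone with 5 members, where the effects beside 1 µM lay between -1.34 (240044_x_at, adjusted p = 0.00743) and 0.21 (228998_at, adjusted p = 0.715) and 1558142_at alone was called beside 10 µM (-0.48 ± 0.10, adjusted p = 0.0385).

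**Figure D4:**
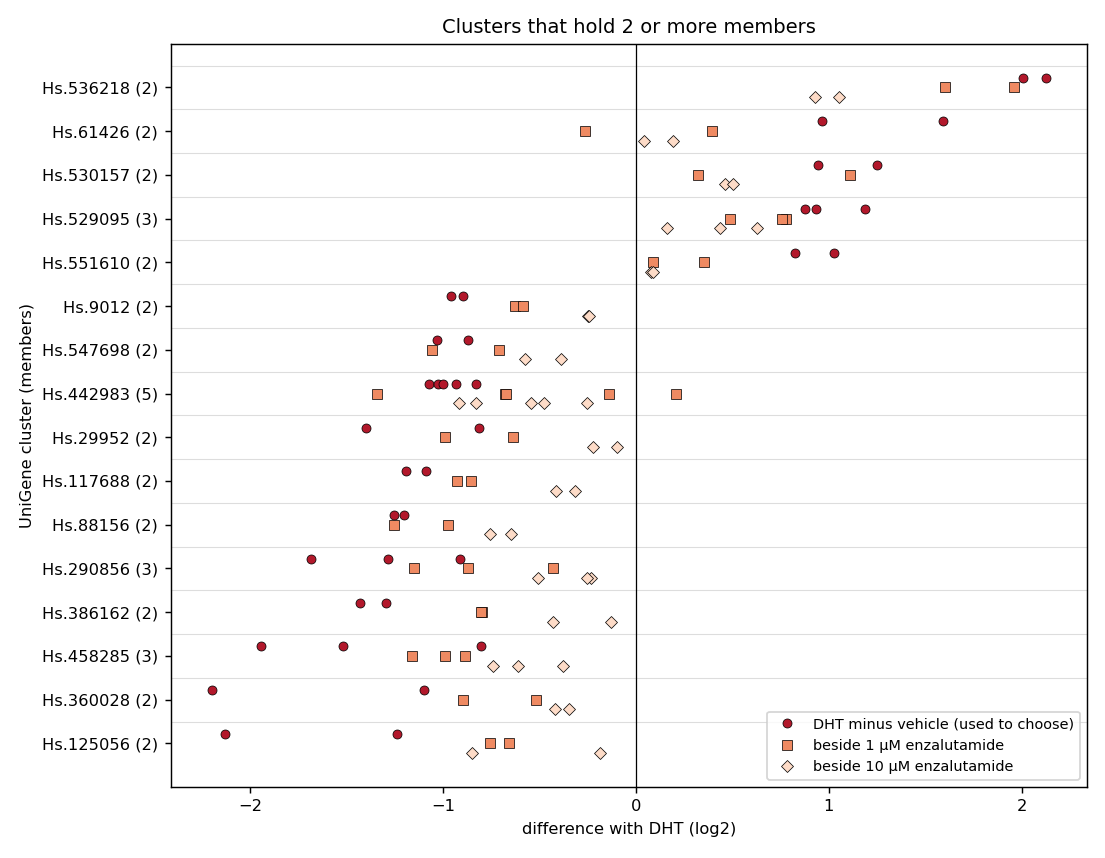
The 16 UniGene clusters with 2 or more members, with 1 point per member for DHT minus vehicle (circles), which chose the members, and for the DHT effect beside 1 µM (squares) and 10 µM enzalutamide (diamonds), all log2. Members of a cluster lie on the same side of 0 without the drug, and squares of Hs.61426 and Hs.442983 cross it beside 1 µM.

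The authors' deposited table of marked probe sets holds 147 of the 204 members among its 3717. Of all probe sets that the authors' deposited table marks for DHT and vehicle, 141 of 2539 were members. The rule chose the members on these arrays, so this count was largely fixed in advance and lends no support. For DHT beside 1 µM enzalutamide and that dose alone 98 of the 2239 marked in the authors' deposited table were members, for DHT beside 10 µM and that dose alone 51 of 938, and for either step between the doses it marks 0 probe sets. For 1 and 10 µM alone and vehicle, members were 5 of 203 and 10 of 262 marked in the authors' deposited table. For DHT with 1 or 10 µM and DHT alone they were 34 of 718 and 85 of 1530 in the authors' deposited table. The 147 and the counts against vehicle or DHT alone also draw on arrays that chose the members. The counts for DHT beside each dose come from the same deposited table, and how probe sets entered it is not stated. All of these counts are therefore a description only.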

How the data were processed

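RNA of 18 LNCaP samples was hybridised to single-colour arrays, per the labels' protocols. The deposited log2 values come from MAS5, per the submitters' processing notes, with array model and MAS5 version not given in the sources used here. On no array did the 2% trimmed mean of the unlogged signal exceed 500.1, the level of a common scaling. The authors' deposited table also gives p-values and a mark (1 or 0) per pair of groups, per the file headers, with the rule behind the mark not stated there.

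Members were found by the rule on the values as deposited, leaving out 62 of 54675 probe sets as controls. The members and gene lists were chosen with earlier results of these data known. limma 3.58.1 (R 4.3.3) fitted group means to the 12 arrays of both doses with and without DHT, which the rule did not use, over all 27155 non-control probe sets of mean log2 signal 7 or more. eBayes used an intensity trend, tests were two-sided, and the Benjamini-Hochberg adjustment ran over all probe sets, with calls under 0.05. Changes are log2 differences with the standard error after ±, from 3 arrays a group, a number that limits the precision. The signal limit applies to the mean of the 18 arrays, and single groups can lie below it. The fit was tested on simulated data with known changes. Comparisons that hold vehicle or DHT arrays have no test.

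Named members were the 10 of largest difference in each direction, those paired with a gene, those nearest the limit, and any called in a dose step or against the direction of the rule, of which there were none. Gene list members were represented by their brightest probe set, named through RefSeq GRCh38.p14 accessions or a current symbol. RefSeq also gave the promoter. Alternatives were the signal limit, scaling, trend, arrays fitted, replicate block and each array left out. Tables and plots used Python 3.11.15, numpy 2.4.6, pandas 2.3.3, scipy 1.17.1 and matplotlib 3.10.9.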

Additional observations from a re-analysis of the deposited data

Results flagged for a closer look

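In 7 members the 3 arrays with DHT and the 3 arrays without it, at one dose of enzalutamide, were separated in the direction opposite to that of DHT without the drug, or in opposite directions at the 2 doses. At 1 µM the separation against the direction of DHT was seen in 1 of 62 higher and 2 of 142 lower members, where 16.3% of all probe sets were separated downward and 15.8% upward. At 10 µM it was seen in 2 of 62 and 2 of 142, where 10.6% and 13.1% of all probe sets were, so these members are fewer than the shares over all probe sets. None of these effects was called by limma, and the difference from DHT without the drug was not tested, since those arrays chose the members.

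For 1557330_at, on a cDNA clone, the DHT effect was -0.52 beside 1 µM and 1.04 beside 10 µM, so the first minus the second was -1.57. That difference was tested and not called (adjusted p = 0.531). At 1 µM the arrays with DHT had 7.42, 7.12 and 6.84 and those without it 7.49, 8.01 and 7.44. At 10 µM the arrays with DHT had 7.15, 7.41 and 7.17 and those without it 6.52, 5.21 and 6.88.

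Of members higher with DHT, 1567274_at had an effect of -1.08 beside 10 µM, with 5.64, 7.52 and 7.27 with DHT and 7.88, 7.83 and 7.95 without it, and 227273_at one of -0.23. Of members lower with DHT, 225906_at, titled as similar to an RCC1-like exchange factor, had 0.53 beside 1 µM, 229716_at 0.68 beside 1 µM, 214757_at 0.50 beside 10 µM and 227599_at 0.31 beside 10 µM. In 225906_at and 229716_at the lowest value without DHT at 1 µM (7.68 and 7.55) was that of replicate 2, the array of ACTB ratio 6.04, whose part was not tested.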

How the results depend on the processing

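The rule gave 129 members at a mean signal of at least 8, 118 at a difference of at least 1 and 347 at one of at least 0.6. Leaving out 1 DHT or vehicle array gave between 208 and 254, and without DHT replicate 2 165 of 208 were members under the rule as given. Members called beside 1 µM numbered 80 to 116 over the fits without 1 array. At a mean signal of at least 8 they were 78 of the 129 tested, and over the other alternatives 96 to 109. Beside 10 µM they numbered 16 to 48 without 1 array, 19 after centring, 28 of 129 at that signal and 22 to 31 otherwise. The cause of these shifts was not tested. The dose step without DHT had 0 to 3 members called without 1 array, the 3 in a fit (without 1 µM replicate 3) that called 619 of 27155 probe sets, against 3. The dose step beside DHT and the difference between the DHT effects had 0 members called in every fit run, and at most 4 and 11 of all probe sets. Over all probe sets, calls beside 1 µM ran between 1881 (without DHT and 1 µM replicate 2) and 5819 (without 1 µM replicate 3), against 3560. Beside 10 µM they were 163 after centring and between 137 and 950 without 1 array, against 368. With the replicate block 107 and 24 members were called beside 1 and 10 µM and 0 in the other contrasts. The numbers did not pair the samples: deviations of same-numbered samples correlated between -0.17 and 0.12, and those of different numbers between -0.23 and 0.23. Of 25 called changes of named members, 20 stayed called in every alternative run, 449 of 469 alternative values were called, 20 were not, and 0 reversed. Of the 75 members of mean under 8, 3 were called beside 10 µM. No share over all probe sets of that signal was counted, and the part of low signal in this count was not tested.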
